A study of Danio rerio with 12 samples.

Results

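The genes avp, hcrt and trh, which encode precursors of hypothalamic neuropeptides, were followed in whole zebrafish larvae raised in the herbicide atrazine. All features of the array whose platform annotation gives one of these 3 symbols were taken, and the log2 intensities of a gene's features were averaged. This gave 36 features, 12 for each gene, out of 385000 on the array. The 3 genes were among 2650 genes with a symbol and 37144 units in all, a unit being a gene or, where a feature has no symbol, its target. The study asked which transcripts developmental atrazine exposure alters, neuroendocrine genes among them.

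Larvae were of the wild-type AB strain and carried no transgene or mutation. Exposure ran from about 1 to 72 hours after fertilization, at atrazine concentrations of 0, 0.3, 3 and 30 ppb, and larvae were collected at 72 hours. There were 3 pools of 50 embryos at each of the 4 doses, with 1 single-colour array per pool. The pools are labelled biological replicates, with no word on whether their clutches differed. The spread behind each p-value is that between these pools and may be partly technical.

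Neuropeptides are cut from longer precursors and released from dense-core vesicles. The avp gene encodes the precursor of vasotocin, the fish counterpart of vasopressin, a neurohypophysial hormone of water balance, stress and social behaviour made by preoptic and hypothalamic neurons. The hcrt gene encodes the precursor of hypocretin (orexin), which comes from a small cluster of hypothalamic neurons and promotes wakefulness in fish and mammals. The trh gene encodes the precursor of thyrotropin-releasing hormone, which in mammals drives the release of thyrotropin from the pituitary.

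Array medians lay between 529 and 530 intensity units on every array, as their common normalization gives. The largest axis of variation between arrays held 41.4% of the variance of all units. Among markers of lens, skeletal muscle and blood, log2 levels over the doses were 12.04 to 15.15 for the 4 measured lens genes and 9.94 to 15.19 for the 4 muscle genes. Of 3 red blood cell genes hbae3 was bright, while hbbe3 at 7.66 to 8.29 and ba1l at 6.10 to 6.79 were dim. The lens gene crybb1 averaged between 15.06 and 15.15, the muscle actin gene acta1b between 15.00 and 15.19 and the globin gene hbae3 between 14.80 and 14.95 over the doses, as log2 intensity. In all, 34 of the 275 listed pathway and marker genes were measured under a symbol, and no photoreceptor or liver marker was. Because whole larvae were measured, fewer cells of a type and less RNA per cell cannot be told apart for any gene below.

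The vasotocin gene avp was higher at 3 and 30 ppb than in control larvae, in every pool. It did not pass the threshold over all units when arrays had equal weights. Its log2 intensity was 8.65, 8.61 and 8.96 in the 3 pools at 0 ppb. At 0.3 ppb it was 8.82, 8.95 and 8.96. At 3 ppb it was 9.52, 9.16 and 9.42, and at 30 ppb 9.24, 9.46 and 8.98. All 6 pools at the 2 higher doses lay above all 6 pools at 0 and 0.3 ppb. However, the lowest pool at 30 ppb, at 8.98, cleared the highest control pool, at 8.96, by a small margin. Such a split of 6 against 6 pools was not among the planned comparisons, and the share of all units with it was not counted. Taken singly, comparisons of 3 or 30 ppb with 0 or 0.3 ppb showed a higher level without overlap in 3.40% to 3.79% of units. The split needs all of these at once, so at most 3.40% of units can show it. Ordered by mean, the levels were highest at 3 ppb, then 30, 0.3 and 0 ppb. The neighbours 3 and 30 ppb overlapped, as did 0.3 and 0 ppb.

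**Figure D1:**
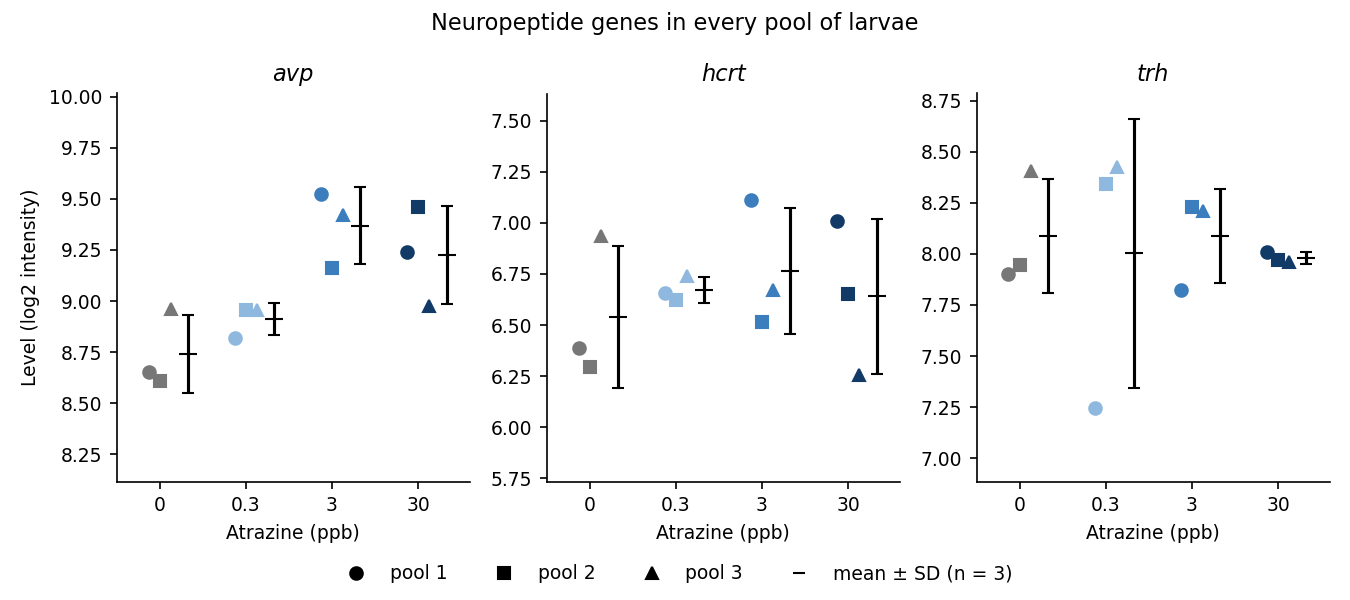
Levels (log2 intensity, vertical axis) of avp, hcrt and trh in every pool against atrazine dose (ppb, horizontal axis). Symbols mark pools 1 to 3 and bars the mean ± SD of 3 pools. The avp pools at 3 and 30 ppb lie between 8.98 and 9.52, above all pools at 0 and 0.3 ppb, while hcrt and trh overlap between doses. How many of all units show the same split was not counted, and it can be at most 3.40% of them.

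At 3 ppb avp averaged 9.37 ± 0.19, against 8.74 ± 0.19 at 0 ppb (SD, n = 3 each), or 1.55-fold. The fitted log2 change was 0.63 (SE 0.16, 95% interval 0.28 to 0.97). Its unadjusted p was 0.00177, smaller in 87 of 37144 units, and the adjusted p was 0.747 (limma with Benjamini-Hochberg adjustment over all units). Pools at 3 and 0 ppb did not overlap, with 3 ppb higher, for avp and for 3.52% of all units. No unit passed at this dose (0% called), and 2.15% were higher at an unadjusted p under 0.05. With array quality weights in place of equal weights avp passed (change 0.71, adjusted p = 0.00856), in a fit that called 1193 units and raised a convergence warning.

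At 30 ppb avp averaged 9.23 ± 0.24, against 8.74 ± 0.19 at 0 ppb (SD, n = 3 each), or 1.40-fold. The fitted log2 change was 0.49 (SE 0.16, 95% interval 0.14 to 0.83, unadjusted p = 0.00953, limma adjusted p = 1). The share of units with no overlap and a higher level at 30 ppb was 3.40%, 2.03% were higher at an unadjusted p under 0.05, and 0% were called. Array weights again placed avp past the threshold (change 0.71, adjusted p = 0.0143, with 354 units called). With features of close ID numbers averaged first, the change at 30 ppb was 0.30 and its 95% interval contained 0 (-0.084 to 0.68). At 0.3 ppb avp averaged 8.91 ± 0.078, against 8.74 ± 0.19 in the same controls (SD, n = 3 each), a log2 change of 0.17 (SE 0.16, 95% interval -0.17 to 0.52, limma adjusted p = 1). No unit passed at 0.3 ppb either (0% called). The 3 changes share the control pools. Left out in turn, single pools moved the change at 3 ppb between 0.55 and 0.74 and that at 30 ppb between 0.37 and 0.61, and no such fit called avp.

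Among the doses, avp was higher at 3 than at 0.3 ppb by 0.46 on the log2 scale (SE 0.16, limma adjusted p = 1), with no overlap, as in 3.59% of units. It was higher at 30 than at 0.3 ppb by 0.32 (SE 0.16, limma adjusted p = 0.995), also with no overlap, as in 3.79% of units. Between 30 and 3 ppb the difference was -0.14 (SE 0.16, 95% interval -0.49 to 0.20), with pools that overlapped. Over the ranked doses the slope was 0.19 per dose step (SE 0.055, unadjusted p = 0.00334, limma adjusted p = 0.454), in a fit that called 36 units, or 0.0969% of all. Dose groups held 73.2% of the variance of avp over the 12 arrays, against a median of 17.4% over all units, and 0.724% of units had a larger share. For 4 groups of 3 without differences, a share of 27.3% would be expected.

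The hypocretin gene hcrt varied more within doses than between them. Its log2 intensity was 6.39, 6.30 and 6.94 in the pools at 0 ppb and 6.65, 6.62 and 6.74 at 0.3 ppb. It was 7.11, 6.51 and 6.67 at 3 ppb, and 7.01, 6.65 and 6.26 at 30 ppb. Every dose overlapped every other dose, and the whole range over the 12 pools was 0.85 on the log2 scale, of which 0.76 was spanned by the 3 pools at 30 ppb alone.

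The fitted log2 changes of hcrt from 0 ppb were 0.13 at 0.3 ppb (95% interval -0.35 to 0.61), 0.22 at 3 ppb (-0.26 to 0.71) and 0.10 at 30 ppb (-0.38 to 0.58). Each had an SE of 0.22 and a limma adjusted p of 1. The slope was 0.040 per dose step (SE 0.067, limma adjusted p = 1). The intervals contain both a rise of the size seen for avp at 30 ppb and a fall, so the data set no direction for hcrt. Dose groups held 9.65% of its variance, and 72.1% of units had a larger share. The main axis of variation between arrays held 67.0% of the variance of hcrt, against 7.50% for avp and 9.85% for trh. A larger absolute correlation with this axis was found in 14.9% of units for hcrt, 74.9% for avp and 71.2% for trh. Each array's slope of signal along the numbers in the feature IDs held 57.1% of the variance of hcrt. That share was 10.1% for avp and 0.69% for trh. With the main axis as a covariate, chosen after the data had been seen, the SE at 3 ppb was 0.14 and the change 0.18, with a limma adjusted p of 0.979.

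The thyrotropin-releasing hormone gene trh showed no difference between doses beyond the spread of its pools. Its log2 intensity was 7.90, 7.95 and 8.41 in the pools at 0 ppb, and 7.25, 8.34 and 8.42 at 0.3 ppb. It was 7.82, 8.23 and 8.21 at 3 ppb. The 3 pools at 30 ppb, at 8.01, 7.97 and 7.96, lay within 0.052 of each other and inside the control range. Replicate 1 at 0.3 ppb was the lowest of the 12 pools, and the pools at 0.3 ppb spanned 1.18.

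Fitted log2 changes of trh from 0 ppb were -0.082 at 0.3 ppb (95% interval -0.66 to 0.50), 0.0014 at 3 ppb (-0.58 to 0.58) and -0.11 at 30 ppb (-0.68 to 0.47). Each had an SE of 0.27 and a limma adjusted p of 1. The slope was -0.023 per dose step (SE 0.078, limma adjusted p = 1). Without replicate 1 at 0.3 ppb the change at that dose was 0.30. Dose groups held 2.41% of the variance of trh, and 95.1% of units had a larger share. The intervals of trh, from 1 spread shared by all doses, were the widest of the 3 genes. They do not exclude a change of the size fitted for avp at 30 ppb, in either direction, at 0.3 or 3 ppb. At 30 ppb they do not exclude a fall of that size, and the upper bound was 0.47. The SD of trh was 0.66 at 0.3 ppb, 0.23 at 3 ppb and 0.028 at 30 ppb. With only the 2 groups compared, the intervals were -0.79 to 0.62, -0.43 to 0.43 and -0.48 to 0.27 at these doses. The last 2 of these do not reach the size fitted for avp.

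**Figure D2:**
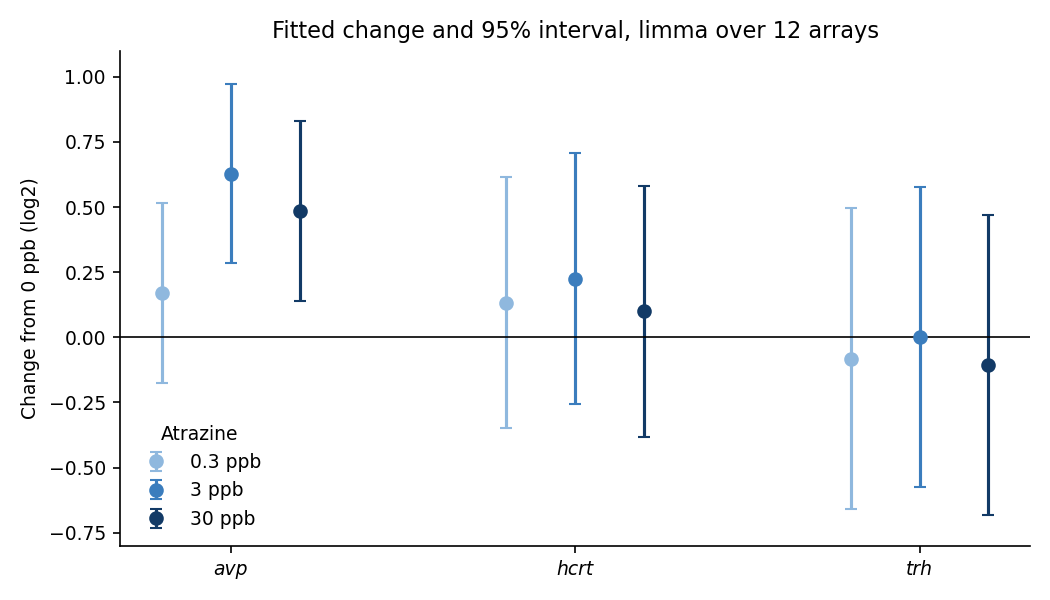
Fitted log2 change from 0 ppb (vertical axis) of avp, hcrt and trh at 0.3, 3 and 30 ppb, with 95% intervals from limma over 12 arrays. The avp intervals at 3 and 30 ppb lie above 0, at 0.28 to 0.97 and 0.14 to 0.83, and every interval of hcrt and trh contains 0. None of the changes passed after adjustment over all units.

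Whether the 3 genes responded differently was tested on the log2 difference between 2 genes within each array. The difference avp minus hcrt averaged 2.201 ± 0.16 at 0 ppb, 2.24 ± 0.086 at 0.3 ppb, 2.60 ± 0.17 at 3 ppb and 2.59 ± 0.31 at 30 ppb (SD, n = 3 each). Its slope was 0.15 per dose step (two-sided exact permutation test over all arrangements of 12 arrays, p = 0.0171). Leaving out each pool in turn gave slopes of 0.13 to 0.20 and exact p-values of 0.00111 to 0.0489. The level of either gene against the other has no meaning on this array. Mean log2 intensities were 5.54 to 7.79 for the hcrt features, which were dim, and 7.38 to 11.40 for those of avp. The part of this difference in brightness in the slope was not tested.

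The difference avp minus trh averaged 0.65 ± 0.099 at 0 ppb, 0.91 ± 0.58 at 0.3 ppb, 1.28 ± 0.39 at 3 ppb and 1.25 ± 0.24 at 30 ppb (SD, n = 3 each). Its slope was 0.21 per dose step (exact permutation p = 0.0414), and p missed 0.05 for 8 of the 12 pools when left out singly (0.0124 to 0.0904 over all 12). These 8 were the 3 at 0 ppb, replicates 2 and 3 at 0.3 ppb, replicate 3 at 3 ppb and replicates 1 and 2 at 30 ppb. With features of close ID numbers averaged first, the slope was 0.15 (exact permutation p = 0.129). Between hcrt and trh the slope was 0.063 (exact permutation p = 0.566). With all atrazine pools together against the 3 control pools, the differences were 0.28 for avp minus hcrt (exact permutation p = 0.114), 0.49 for avp minus trh (exact permutation p = 0.0864) and 0.21 for hcrt minus trh (exact permutation p = 0.486). After Benjamini-Hochberg adjustment over these 6 exact permutation tests none was under 0.05, with the slopes of avp minus hcrt at 0.103 and of avp minus trh at 0.124. The p-values above are unadjusted, and the genes were chosen with earlier results known.

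**Figure D3:**
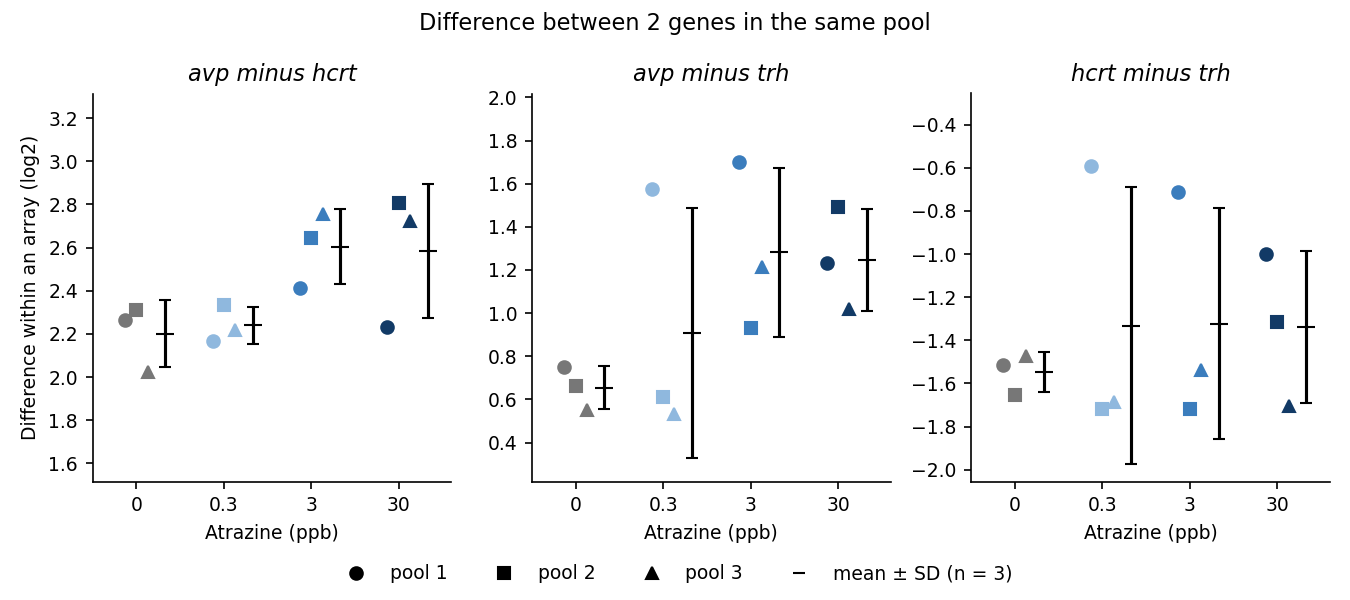
Difference in log2 intensity between 2 of the genes within the same array (vertical axis) against atrazine dose (ppb), for each pool, with mean ± SD of 3 pools. The difference avp minus hcrt averages 2.201 and 2.24 at 0 and 0.3 ppb and 2.60 and 2.59 at 3 and 30 ppb, and hcrt minus trh shows no order with dose.

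Each gene's mean rested on 12 features, named by their target and a number, which was read as the place of the feature along the transcript although no table used here states it. For avp, 11 of 12 features were higher at 3 ppb than at 0 ppb and 10 of 12 at 30 ppb. Among the 21881 units with 12 features, 1.92% and 4.36% had at least as many features higher at these doses. Over all 385000 features limma called 1 feature at 3 ppb and 0 at 30 and 0.3 ppb, none of them in these genes.

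The higher avp signal was not spread evenly over its features. The 5 features numbered 177, 178, 179, 186 and 193 were higher by 0.78 to 1.02 at 3 ppb and by 0.47 to 1.27 at 30 ppb, on the log2 scale. These 5, with neighbouring numbers at most 20 apart, were set apart after the data had been seen. Feature 178 measured 10.71, 10.53 and 10.33 at 30 ppb, against 9.47, 9.01 and 9.27 at 0 ppb. Its change of 1.27 had the smallest p of all 36 features in these fits (limma unadjusted p = 0.000624, adjusted p = 0.458). Feature 177 measured 9.69, 9.28 and 10.17 at 3 ppb, against 8.47, 8.54 and 9.06 at 0 ppb. The groups did not overlap for either feature. In all, 6 of 12 avp features were higher without overlap at 3 ppb and 4 of 12 at 30 ppb, against 4.01% and 4.12% of all 385000 features. Such numbers lie so close together that these features may read the same stretch of transcript, and they are not independent measurements.

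The other 7 avp features ranged from -0.14 to 1.46 at 3 ppb and from -0.87 to 1.13 at 30 ppb, with means of 0.43 and 0.22. The feature with the lowest number, 28, was the brightest of the 12, and measured 11.99, 12.35 and 12.13 at 3 ppb, against 10.84, 11.27 and 9.99 at 0 ppb. Feature 375, near the other end, measured 7.12, 8.23 and 7.13 at 30 ppb, against 8.19, 7.97 and 8.93 at 0 ppb, a change of -0.87 with overlapping pools. The first 6 features by number averaged 0.73 at 30 ppb and the last 6 averaged 0.25. The gap of 0.48 was matched or exceeded by 4.89% of units with 12 features. At 3 ppb the gap was 0.40, matched or exceeded by 8.35% of these units, and at 0.3 ppb it ran the other way, at -0.14 (42.6%). With features of close ID numbers averaged first, which leaves 8 values for avp, the change was 0.49 at 3 ppb and 0.30 at 30 ppb (limma adjusted p = 1 for both).

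**Figure D4:**
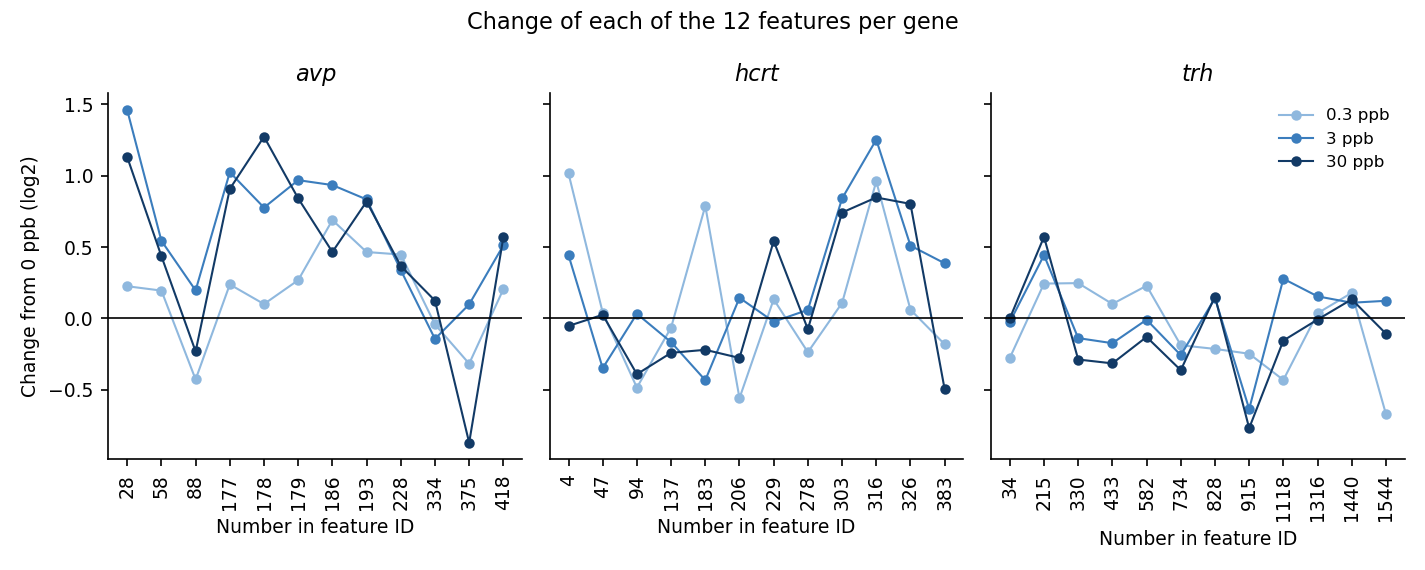
Log2 change from 0 ppb (vertical axis) of each of the 12 features of avp, hcrt and trh at 0.3, 3 and 30 ppb, in the order of the number in the feature's ID (horizontal axis, not to scale). For avp the features from 177 to 193 are higher at both upper doses and feature 375 is lower at 30 ppb, and for hcrt features 303, 316 and 326 stand above the other 9 at 3 and 30 ppb.

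For hcrt, 3 neighbouring features differed from the rest. Features 303, 316 and 326 were higher by 0.51 to 1.25 at 3 ppb and by 0.74 to 0.85 at 30 ppb. The other 9 features ranged from -0.43 to 0.44 at 3 ppb and from -0.50 to 0.54 at 30 ppb, with means of 0.011 and -0.13. Feature 316 measured 9.69, 7.53 and 7.62 at 3 ppb, against 6.33, 6.82 and 7.93 at 0 ppb, so its pools overlapped and 1 pool at 3 ppb was far above the others. The first 6 hcrt features minus the last 6 gave -0.56 at 3 ppb and -0.59 at 30 ppb, gaps matched or exceeded by 3.05% and 2.55% of units with 12 features. The subset of 3 was picked after its values were seen. Each array's slope along the feature numbers held 57.1% of the variance of hcrt, and its part in this pattern was not tested. With the median of features in place of their mean, hcrt at 30 ppb differed by -0.18 from 0 ppb, the opposite sign to the mean.

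The hcrt features were dim, with mean log2 intensities of 5.54 to 7.79, brighter than 7.85% to 35.8% of all features on the array. No background call could be made from the deposited values. The features of avp spanned 7.38 to 11.40 and those of trh 6.65 to 8.92. The features of trh were split on direction, with 6 of 12 higher at 0.3 ppb, 6 at 3 ppb and 4 at 30 ppb. Among the 21881 units with 12 features, 60.9%, 56.0% and 80.6% had at least as many features higher at these doses. The low trh pool at 0.3 ppb was low in some of the trh features only. In replicate 1 at that dose feature 1544 measured 5.06, against 7.72, 8.10 and 7.22 at 0 ppb, while feature 1440 measured 8.91, against 8.71, 8.82 and 8.91 at 0 ppb.

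Other genes of neuropeptide signalling were few on the array under a symbol. Of 63 listed precursor genes 7 were measured, which are avp, hcrt, trh and 4 others, and 0 passed in either direction at any dose, where 0% of all units did. The 4 others were npffl, adcyap1a, pdyn and ghrh. At 3 ppb these were higher than at 0 ppb, pdyn, ghrh and adcyap1a by 0.076 to 0.11 and npffl by 0.79, where 47.2% of all units were higher and the median change over all units was -0.0096. At 30 ppb 3 of these 4 were higher, by 0.082 to 0.72, and adcyap1a differed by -0.0092, where 44.7% of all units were higher and their median change was -0.018. The level of npffl, a neuropeptide FF-like gene, was 10.12 ± 0.25 at 3 ppb against 9.34 ± 0.14 at 0 ppb (SD, n = 3 each, change 0.79, SE 0.16, limma adjusted p = 0.372). The pituitary adenylate cyclase-activating peptide gene adcyap1a differed by -0.37 at 0.3 ppb (SE 0.20, limma adjusted p = 1). The prodynorphin gene pdyn and the growth hormone-releasing hormone gene ghrh differed by 0.076 each at 3 ppb (SE 0.18 and 0.19).

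No measured receptor, processing gene or regulator of these neurons passed the threshold at any dose, where 0% of all units did. The hypocretin receptor gene hcrtr2, the only 1 of 18 listed receptors measured, differed by 0.0013, 0.015 and 0.053 at 0.3, 3 and 30 ppb (SE 0.17 each, limma adjusted p = 1). Of 20 genes of precursor processing and dense-core vesicles 2 were measured. The secretogranin gene scg2b differed by 0.052, 0.16 and 0.087 at 0.3, 3 and 30 ppb (SE 0.14 each), and the convertase gene pcsk5b by 0.048, -0.013 and -0.086 (SE 0.13 each). Of 34 genes that specify hypothalamic neurons, the transcription factor genes fezf2 and nhlh2 were measured, with SEs of 0.21 and 0.15. The change of fezf2 was 0.22 at 0.3 ppb, 0.066 at 3 ppb and -0.17 at 30 ppb, and that of nhlh2 was 0.15, 0.11 and -0.012. The 3 measured of 31 pituitary and thyroid axis genes were lhb, smtla and smtlb. All 3 were higher at 3 and 30 ppb, by medians of 0.51 and 0.64, where 47.2% and 44.7% of all units were. The changes were uneven, 1.44 and 1.42 for lhb (SE 0.26) against 0.33 and 0.16 for smtlb (SE 0.19). None of the 3 genes passed in these comparisons (smallest limma adjusted p of 0.179), where 0% of all units did.

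Markers of neural tissue had no common direction at the doses where avp was higher. Of 35 neuron and synapse markers 5 were measured, 3 higher and 2 lower at 3 ppb with a median log2 change of 0.015, and 2 higher and 3 lower at 30 ppb with a median of -0.039. Their summed intensity lay between 13891 and 15549 in pools at 3 ppb and between 13658 and 16428 at 30 ppb, against 14595 to 16068 at 0 ppb. The 1 measured glial marker, fabp7a, differed by 0.087 at 3 ppb and 0.037 at 30 ppb. The 4 measured skeletal muscle markers were all lower at each dose, by medians of -0.17, -0.074 and -0.17 at 0.3, 3 and 30 ppb, with 0 past the threshold, where 49.3%, 52.8% and 55.3% of all units were lower. Of 3 red blood cell markers, 3, 3 and 2 were higher at 0.3, 3 and 30 ppb (medians 0.27, 0.19 and 0.064). Of 2 measured exocrine pancreas markers, 0, 2 and 2 were higher at these doses (medians -0.44, 0.35 and 0.36). Over all units, 50.7%, 47.2% and 44.7% were higher. The part of muscle, blood and pancreas in the avp values was not tested.

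The genes closest in pattern to each neuropeptide gene were sought among 2457 genes with a symbol, by Pearson correlation of log2 level over the 12 arrays. The values describe these arrays, which share dose groups and the main axis of variation. Closest to avp were npffl (r = 0.93, Spearman's rho 0.88), the globin gene ba1l (0.91, rho 0.87), zglp1 (0.88, rho 0.80), lhb, which encodes the beta subunit of luteinizing hormone (0.88, rho 0.87), and the RNA export factor gene nxf1a (0.87, rho 0.83). The 5 genes were higher at 3 ppb than at 0 ppb by 0.48 to 1.44. They were picked by likeness to avp on these same arrays, so this rise is no separate result. The gene most opposed to avp, picked in the same way, was pgap4 (r = -0.79, rho -0.79), at -0.29 at 3 ppb.

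The same search was made for hcrt and trh. For hcrt they included the phospholipase gene pla2g10 (r = 0.92, rho 0.93), the oligodendrocyte lineage factor gene olig1 (0.92, rho 0.92), the small heat shock protein gene cryabb (0.92, rho 0.94) and the interleukin gene il22 (0.90, rho 0.83). The log2 changes of these 4 genes at 3 ppb lay between 0.16 and 0.27. For trh they were the chondroitin sulfate synthase gene chsy1 (r = 0.88, rho 0.76), the protein kinase A subunit gene prkacab (0.85, rho 0.89), the vesicular acetylcholine transporter gene slc18a3b (0.84, rho 0.83), prdm9 (0.82, rho 0.82) and mettl27 (0.80, rho 0.73). The most opposed were the protocadherin gene pcdh2g6 to hcrt (r = -0.91, rho -0.86) and the adiponectin gene adipoqb to trh (r = -0.85, rho -0.80).

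**Figure D5:**
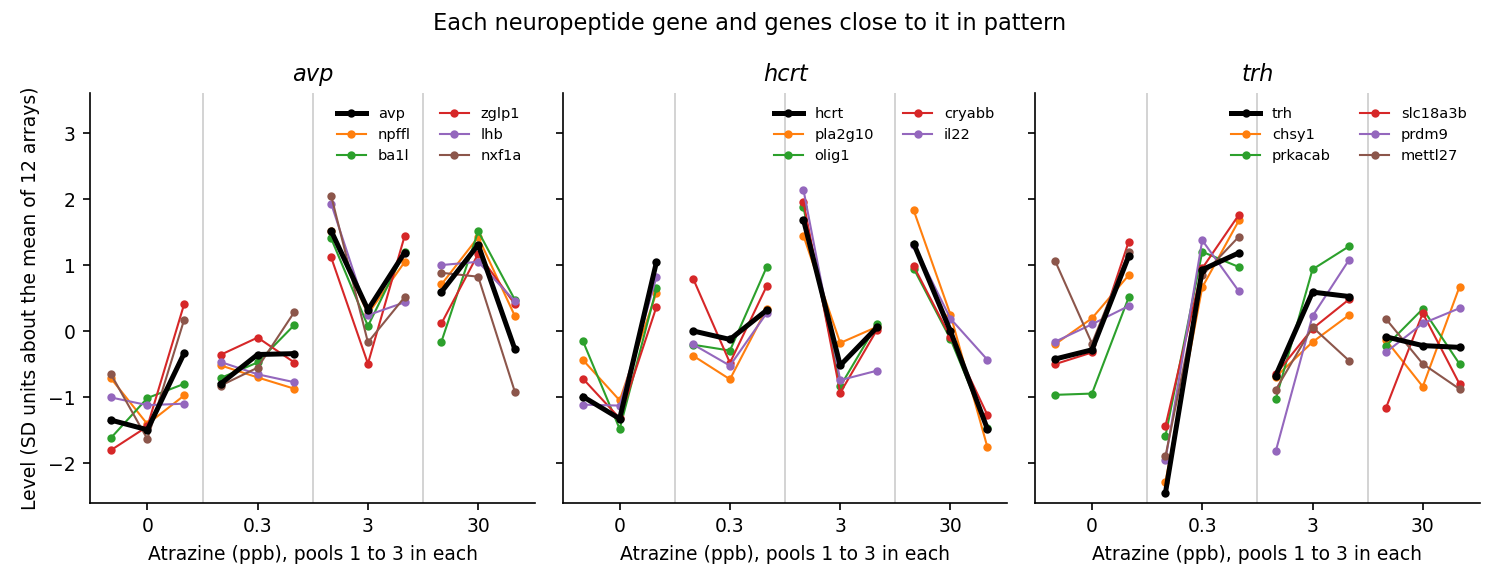
Level of avp, hcrt and trh (black) and of the genes named as closest to each in pattern (colours), in SD units about each gene's mean over 12 arrays (vertical axis), for pools 1 to 3 at each atrazine dose (ppb, horizontal axis). Lines join pools of 1 dose only to guide the eye. In its panel avp steps up at 3 ppb. Pool 2 at 3 ppb lies within the range at lower doses for ba1l, zglp1 and nxf1a. The level of hcrt peaks in pool 1 at 3 and 30 ppb and pool 3 at 0 ppb. The trh panel has its lowest point in pool 1 at 0.3 ppb.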

How the data were processed

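RNA of 12 pools of whole larvae, 3 per dose, was labelled with Cy3 and hybridised to single-colour NimbleGen arrays. The deposited matrix holds linear fluorescence intensities of 385000 features, and RMA is named, without a version, per the submitters' processing notes. Quantiles were nearly equal on all arrays, so the deposited intensities were taken as normalized between arrays. How background was corrected, and on which slides or dates, is unknown here. The authors' intensities were transformed to log2, where the planned test had assumed log2 values. Features with the same symbol, from the platform annotation or a RefSeq accession (GRCz12tu gene table, names only), were averaged, and other features by target ID. No unit was filtered. The number of arrays limits the precision.

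A model with 1 mean per dose was fitted to the 12 arrays in R 4.3.3, by limma 3.58.1 with eBayes, with Benjamini-Hochberg adjustment over 37144 units and a threshold of 0.05. A slope was fitted over the dose rank, and single features were fitted over all 385000. Python 3.11.15, numpy 2.4.6 and pandas 2.3.3 were used for naming and the exact permutation tests. The fit was also run on simulated data with independent noise in each unit and array. The axis of variation that these arrays share was absent there, so that run does not vouch for calls here. The genes named are avp, hcrt and trh, the 5 genes closest in pattern to each (1 of those for hcrt is not reported here) and the most opposed one, and measured members of the lists of pathway genes. Genes, lists and tests were chosen with earlier results of these data known. The alternatives were another summary of features, cyclic loess, a filter on dim units, array weights, another empirical Bayes setting, a replicate block, a covariate for each array's slope along feature numbers, only the groups compared, dose in ppb for the trend, and single pools left out. The main axis as a covariate and the averaging of features with ID numbers at most 20 apart were added after the data had been seen.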

Additional observations from a re-analysis of the deposited data

How the results depend on the processing

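No alternative turned a change of avp, and 3 of its 78 values under other settings passed, all with array weights (0.71 at 3 ppb, 0.71 at 30 ppb and a slope of 0.23, limma adjusted p = 0.00856, 0.0143 and 0.039). The changes of hcrt and trh, none past the threshold, turned in sign in 8 of 70 and 5 of 78 values under other settings. For hcrt these were -0.18 (median of features) and -0.038 (close features averaged first) at 30 ppb, -0.043 (median) and -0.018 (array weights) for 3 against 0.3 ppb, 0.13 (feature gradient) and 0.083 (main axis) for 30 against 0.3 ppb, and slopes of -0.058 (median) and -0.010 (close features). For trh they were 0.069 (median) and 0.044 (array weights) at 0.3 ppb, -0.0064 (gradient) at 3 ppb, and 0.064 (median) and 0.073 (array weights) for the mean of the doses. The cause was not tested. Below the dim filter, hcrt has no value.

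Without 1 pool, trh ranged from -0.29 to 0.30 at 0.3 ppb, -0.090 to 0.16 at 3 ppb, -0.20 to 0.055 at 30 ppb, -0.15 to 0.098 for the mean of the doses, -0.30 to 0.29 for 3 against 0.3 ppb, -0.40 to 0.19 for 30 against 0.3 ppb and -0.053 to 0.020 for the slope. For hcrt the ranges were 0.010 to 0.33 at 0.3 ppb, 0.052 to 0.42 at 3 ppb, -0.085 to 0.30 at 30 ppb, 0.00055 to 0.099 for the slope, -0.080 to 0.22 for 3 against 0.3 ppb, -0.22 to 0.16 for 30 against 0.3 ppb and -0.31 to 0.068 for 30 against 3 ppb. For avp they were 0.10 to 0.28 at 0.3 ppb, 0.20 to 0.44 for 30 against 0.3 ppb and -0.26 to -0.018 for 30 against 3 ppb. Calls over all units ranged from 0 to 4 at 30 ppb, 0 to 1 for 30 against 0.3 ppb and 0 to 58 for the trend (0 without replicate 3 at 0 ppb, 2 at 0.3 ppb, 2 or 3 at 3 ppb, or 2 at 30 ppb, 1 without replicate 2 at 0 ppb, 5 without 3 at 30 ppb and 58 without 1 at 3 ppb). The difference avp minus trh ranged from 0.42 to 0.57 against controls, and from 0.19 to 0.26 as a slope.

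Array weights called 1193 units at 3 ppb, 354 at 30 ppb, 24 for the mean of the doses, 17 for 3 against 0.3 ppb, 61 for 30 against 0.3 ppb, 2212 for 30 against 3 ppb and 190 for the trend. The main axis as a covariate gave 6, 44, 1, 13 and 139 at 3 ppb, 30 ppb, 3 against 0.3 ppb, 30 against 0.3 ppb and the trend. The median of features gave 3, 2, 1 and 14 at 3 ppb, 30 ppb, 30 against 0.3 ppb and the trend, and the gradient 6, 1 and 71 for the last 3 of these. The trend had 11 calls with the dim filter, 0 with close features averaged and 0 with dose in ppb. The difference avp minus hcrt against controls was 0.36 with cyclic loess (exact permutation p = 0.0273), the slope of avp minus trh 0.15 with close features averaged, and hcrt minus trh -0.0045 against controls and -0.052 as a slope with the median.

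With the replicate block, 1 unit was called at 30 ppb and 3 for 30 against 0.3 ppb, and no call of the 3 genes changed. The labels do not say whether pools with the same number share a batch. Of 18 same-numbered pairs, 9 had deviations that correlated above 0.1 (-0.37 to 0.68 over all 18). The highest were those of replicate 2 among 0, 0.3 and 3 ppb (0.64, 0.68 and 0.65). When matched only to arrays of other doses, 6 of 12 arrays correlated best with an array of their own number. Whether the number marks a batch was not tested.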
